A study of Mus musculus with 30 samples.

Results

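Levels of 10 genes of axon growth and of the microtubules in young neurons were followed across the mouse midbrain floor plate and 2 kinds of adult brain sphere. The genes were taken by symbol from both deposited expression tables: doublecortin (Dcx), the 5 collapsin response mediator protein (CRMP) genes Dpysl2, Dpysl3, Dpysl4, Dpysl5 and Crmp1, the stathmin genes Stmn1, Stmn2 and Stmn4, and Gap43. All 10 were found, among 14997 genes kept from the captured table and 26005 genes of the sphere table.

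Polyadenylated RNA was profiled in 30 libraries, and the series is about when progenitors of dopamine neurons make neurons and when ependymal cells mature, and the part of Sox9 and Nfi factors in it. Of these, 20 came from laser capture of midbrain floor plate at embryonic day 11 (E11, n = 4), E13 and E18 (n = 5 each) and postnatal day 70 (P70, n = 6), all of the genotype Lmx1aCreERT2; R26TRAPC. Lmx1aCreERT2 is an inducible recombinase under the floor plate gene Lmx1a, so it marks cells that expressed Lmx1a when it was induced, whatever they became later. The other 10 came from spheres grown in vitro from adult brain, 5 called MB and 5 called FB. The series text speaks of ependymal spheres from the midbrain aqueduct and neurospheres from the lateral ventricle, and the labels do not spell out MB or FB or give the spheres a genotype. No label ties a library to an animal or a culture, so p-values measure only the spread between these samples, which may be technical, and are too small if captures share an animal.

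Captured levels are the authors' normalized values, which behave like RPKM (reads scaled to gene length and library depth) and are called units here. The table holds a gene at an age when its average over that age was 1 unit or more, and it is otherwise called not listed. Reads recovered from the values of 10860 genes summed per library to 3325914 to 3886530 (E11), 2867446 to 4311313 (E13), 2679897 to 3484799 (E18) and 1149485 to 2665138 (P70). Low genes thus rest on the fewest reads in the adult. The spheres had 6327198 to 9291311 counts per library. Their levels are given as CPM, counts scaled to the library size that the TMM method of edgeR gives, not to the plain total. Of 9 floor plate and radial glia markers, 9 were listed at E11, E13 and E18 and 7 at P70, where Shh and Corin were not listed. In the spheres only 2 of 10 ependymal markers, Foxj1 and Rsph1, passed the filter on low counts, and the floor plate genes Foxa2, Lmx1a, Shh and Corin did not.

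Doublecortin binds and stabilises microtubules in migrating and newly formed neurons and is widely used as their marker. The CRMP proteins bind tubulin and carry semaphorin signals that steer growth cones, stathmins bind free tubulin and promote the disassembly of microtubules, and Gap43 is a membrane protein of growth cones and a substrate of protein kinase C. In the embryonic ventral midbrain, floor plate progenitors give rise to dopamine neurons, while in the adult the cells lining the aqueduct are mostly ependymal.

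On mouse build GRCm38, Dcx lies on chromosome X from 143855842 to 143933311 on the minus strand. Crmp1 and Dpysl5 share chromosome 5, Crmp1 from 37241940 to 37292133 and Dpysl5 from 30711564 to 30799375, both on the plus strand. Dpysl2 and Stmn4 share chromosome 14, Dpysl2 from 66802864 to 66868688 on the minus strand and Stmn4 from 66344296 to 66361680 on the plus strand. Dpysl4 lies on chromosome 7, Stmn1 on chromosome 4, Stmn2 on chromosome 3 and Gap43 on chromosome 16.

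RefSeq promoter windows on GRCm38.p6, which run from 250 bases before a gene's start to 50 after it, were at hand for 3 of the 10 genes. These windows, of Dcx, Crmp1 and Dpysl5, are shown because they were at hand. All 10 genes, not only these 3, were lower at P70 than at E18, or not listed at P70, in the results that follow. Crmp1 has 2 separate starts. A second Dcx window overlaps the one shown and is left out. Capitals mark TATAAA on either strand and the GC box GGGCGG on either strand (CCGCCC where it lies on the other strand). The windows are chrX:143933170-143933469 on the minus strand, chr5:37241808-37242107 and chr5:37245514-37245813 on the plus strand, and chr5:30711314-30711613 on the plus strand.
Dcx: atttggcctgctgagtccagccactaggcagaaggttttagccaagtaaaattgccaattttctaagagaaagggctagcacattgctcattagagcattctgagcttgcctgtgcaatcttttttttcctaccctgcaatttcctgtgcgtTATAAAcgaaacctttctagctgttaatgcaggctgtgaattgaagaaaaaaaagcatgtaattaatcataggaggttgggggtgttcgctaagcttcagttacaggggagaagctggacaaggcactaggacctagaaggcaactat
Crmp1, upstream start: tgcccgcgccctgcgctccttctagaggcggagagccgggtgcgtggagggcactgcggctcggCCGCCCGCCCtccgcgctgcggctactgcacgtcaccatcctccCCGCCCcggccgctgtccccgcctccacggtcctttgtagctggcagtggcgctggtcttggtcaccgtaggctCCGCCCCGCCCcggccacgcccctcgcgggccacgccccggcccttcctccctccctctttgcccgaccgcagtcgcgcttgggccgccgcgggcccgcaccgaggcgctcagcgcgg
Crmp1, downstream start: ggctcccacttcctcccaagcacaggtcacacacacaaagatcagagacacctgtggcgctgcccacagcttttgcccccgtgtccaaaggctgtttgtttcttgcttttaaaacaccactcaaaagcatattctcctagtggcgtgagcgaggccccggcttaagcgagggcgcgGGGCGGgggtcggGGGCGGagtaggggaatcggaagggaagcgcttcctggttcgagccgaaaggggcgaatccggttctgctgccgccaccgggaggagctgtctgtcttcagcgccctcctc
Dpysl5: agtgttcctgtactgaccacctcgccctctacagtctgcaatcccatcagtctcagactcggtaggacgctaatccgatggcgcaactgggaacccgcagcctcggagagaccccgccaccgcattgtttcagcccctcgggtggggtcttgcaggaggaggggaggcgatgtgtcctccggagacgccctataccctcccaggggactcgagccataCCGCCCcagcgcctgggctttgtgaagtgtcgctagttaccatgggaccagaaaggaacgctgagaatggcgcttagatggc
The Dcx window holds TATAAA 98 bases before the start and no GC box. The upstream Crmp1 window holds 5 GC boxes on the opposite strand, with 2 overlapping pairs among them, the downstream one holds 2 on its own strand, and the Dpysl5 window holds 1. Of all 32851 windows, 13.6% hold TATAAA and 35.7% hold GGGCGG. The E box letters CAGCTG and CAGATG, found on either strand in 16.3% and 17.2% of all windows, are not in these windows.

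The first comparison asked how the genes differed between E13 and E11. Stmn2, Crmp1, Stmn4, Dcx and Stmn1 rose, 0 of the 10 genes fell, and the other 5 did not pass the test. The median log2 difference of the 10 was 1.05, against -0.044 over all genes tested. Stmn2 moved most, at 4.37-fold on the scale of log2(value + 1), which understates the change of low genes. At an adjusted p under 0.05, 20.9% of the 11567 genes tested passed, 9.44% higher and 11.5% lower, against 5 and 0 of the 10.

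Stmn2, a stathmin of neurons found in growing axons, measured 521, 959.6, 429.6, 239 and 150.2 units in the E13 libraries, against 37.1, 68.2, 123 and 172 units in the E11 libraries. All E13 libraries but replicate 5 lay above every E11 library. The log2 difference was 2.13 (SE 0.45, limma adjusted p = 0.00162). Crmp1 measured 178, 314, 164, 146 and 123 units at E13, against 36.6, 58.8, 84.4 and 114 units at E11. Its groups did not overlap, and E13 replicate 2 stood well above the rest. The log2 difference was 1.36 (SE 0.34, limma adjusted p = 0.00687). These 2 genes passed with any single library left out.

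Dcx measured 47.9, 74.5, 33.7, 21.7 and 17.5 units at E13, against 6.68, 14.7, 18.8 and 23.7 units at E11. E13 replicates 4 and 5 fell within the E11 range, and the log2 difference was 1.17 (SE 0.40, limma adjusted p = 0.0459). Stmn1, the widely expressed stathmin that is also abundant in dividing cells, measured 505, 764, 622, 686 and 471 units at E13, against 261, 392, 324 and 490.1 units at E11. Only E13 replicate 5 lay within the E11 range, and the log2 difference was 0.75 (SE 0.24, limma adjusted p = 0.0295). Stmn4, a stathmin restricted to the nervous system, measured 31.4, 46.7, 24.4, 5.58 and 12.4 units at E13, against 3.49, 10.1, 9.26 and 7.09 units at E11. E13 replicate 4 was within the E11 range, and the log2 difference was 1.339 (SE 0.45, limma adjusted p = 0.0378).

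The calls of these 3 genes were each lost without one or another single library. The Dcx call was lost, with log2 differences of 0.83, 1.18 and 1.29, without E11 replicate 1, 2 or 3, and with 1.06, 0.90 and 1.18 without E13 replicate 1, 2 or 3. It was also lost at 1.23 with a pseudocount of 0.1 and at 1.1995 with a replicate block. The Stmn1 call was lost at 0.60 and 0.70 without E11 replicate 1 or 3, and at 0.66, 0.73 and 0.70 without E13 replicate 2, 3 or 4. The Stmn4 call was lost at 1.06, 1.46 and 1.343 without E11 replicate 1, 3 or 4, and at 1.17, 1.03 and 1.26 without E13 replicate 1, 2 or 3, and also at 1.339 in a fit of these 2 ages alone.

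Gap43 measured 320.0, 596, 216, 141 and 58.6 units at E13, against 43.2, 65.8, 113 and 169.7 units at E11. Its E13 libraries spread 10.2-fold, 2 of them lay within the E11 range, and the log2 difference of 1.23 did not pass (SE 0.54, limma adjusted p = 0.116). The Gap43 difference passed at 1.67 without E13 replicate 5, at 1.33 with library weights and at 1.51 with edgeR on recovered reads. Dpysl4 measured 74.2, 82.4, 75.0, 60.5 and 95.5 units at E13, against 36.4, 41.7, 30.9 and 53.4 units at E11. The groups did not overlap, yet the difference of 0.93 did not pass in the fit of all ages (SE 0.43, limma adjusted p = 0.140). It passed in a fit of these 2 ages alone, with a pseudocount of 5, with library weights and with edgeR on recovered reads.

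The other CRMP genes overlapped between the ages. Dpysl3 differed by 0.74 (limma adjusted p = 0.105) and passed at 0.95 without E13 replicate 4 and at 0.86 with library weights. Dpysl2, the CRMP best known for promoting axon formation, differed by 0.48 (limma adjusted p = 0.321), with 474, 375, 169, 228 and 156 units at E13 against 178, 176, 225 and 159 units at E11. Dpysl5 differed by 0.089 (limma adjusted p = 0.910), with means of 46.4 units at E13 and 42.3 units at E11.

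Within an age the genes tended to be high in the same libraries. E13 replicate 2 gave the highest value of 8 of the 10 genes, and replicates 5 and 4 the lowest of 6 and 4. At E11, replicate 4 was highest for 8 genes and replicate 1 lowest for 7. How often these libraries were highest or lowest over all genes was not counted, so the pattern may not be particular to the 10 genes. Of 10 mature neuron markers 9 were listed at E13, and their summed level was highest in replicate 2, at 150.1 units, and lowest in replicate 5, at 38.5 units. The summed level of the same markers was 38.5 to 150.1 units at E13 and 20.9 to 48.9 units at E11, with 1 of 8 tested higher and 0 lower. That of 10 cycling cell markers was 241 to 527 units at E13 and 1083 to 1290 units at E11, with 10 of the 10 lower at E13. Floor plate and radial glia markers summed to 7337 to 14323 units at E13 and 1622 to 1956 units at E11, with 2 of 9 higher and 2 lower. Their median log2 difference was -0.23, so the larger sum was not a rise of most of these markers. Of 8 dopamine neuron markers, 6 were listed at E13 and 5 at E11, summing to 136 to 846 units at E13 and 89.1 to 143 units at E11. The part of these markers in the results was not tested. In bulk samples such as these, fewer cells of a type and less RNA per cell cannot be told apart.

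**Figure D1:**
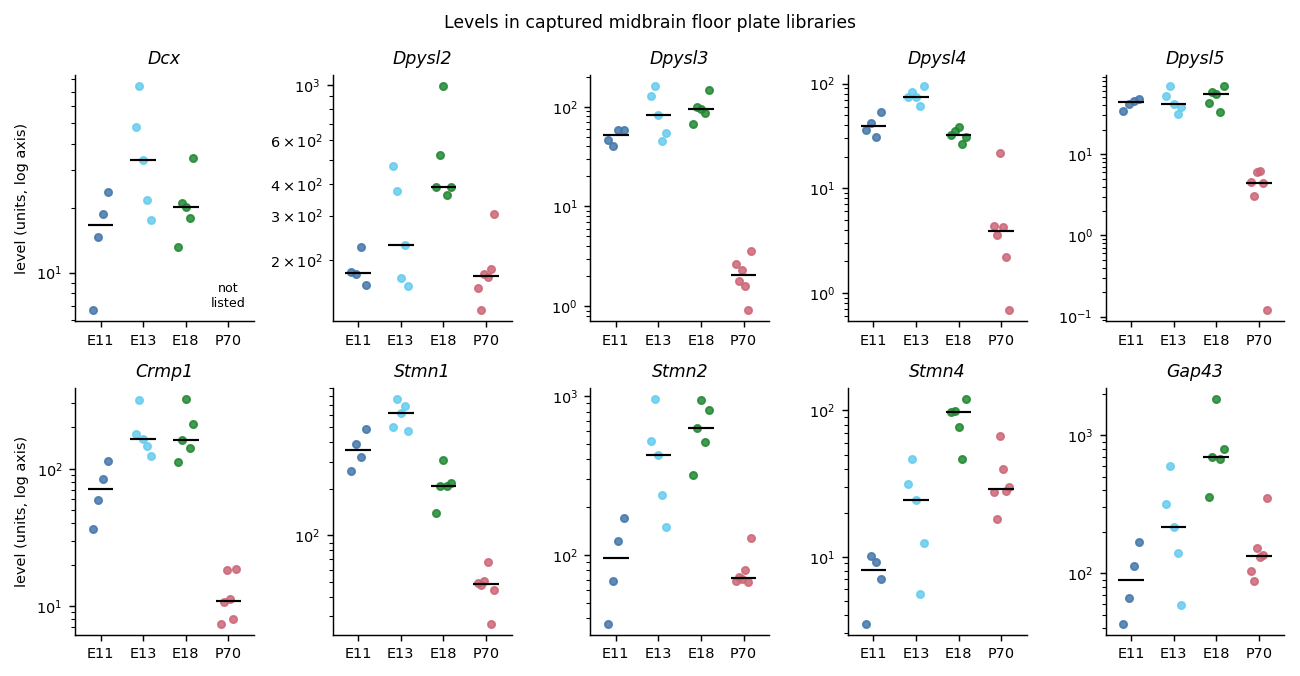
Level of each gene in every captured library (points, units on a log axis) at E11, E13, E18 and P70, with the median of each age as a bar. Dpysl3 sits between 0.910 and 3.55 units at P70 and between 67.5 and 148 units at E18, while the P70 libraries of Stmn4 overlap those of E18, and Dcx is not listed at P70.

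Among 22 other genes of the growth cone and the axon cytoskeleton, 10 rose at E13 and 0 fell, with a median log2 difference of 0.91. Over all genes tested, 20.9% passed, 9.44% higher and 11.5% lower. Mapt, which encodes the axonal microtubule protein tau, averaged 46.7 ± 36.2 units at E13 (SD, n = 5) and 4.30 ± 2.91 units at E11 (SD, n = 4), a difference of 3.01 (SE 0.49). The neuronal tubulin Tubb3 averaged 996 ± 333 units at E13 and 361 ± 156 units at E11, and the adhesion molecule Ncam1 averaged 71.7 ± 35.2 units at E13 and 20.5 ± 5.52 units at E11. The tubulin Tuba1a, whose reads may be shared with near-identical tubulin genes, averaged 9822 ± 1998 units at E13 and 4136 ± 768 units at E11. Of 21 kinases and semaphorin receptors tested, 4 rose and 3 fell. Those that rose were the kinase genes Prkcb (1.35), Mapk10 (1.05) and Camk2a (1.79) and Cdk5r1 (1.92), the activator of Cdk5. Rock2, Mark2 and the semaphorin co-receptor Nrp1 fell.

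The second comparison asked how E18 differed from E13. Stmn4, Gap43 and Dpysl2 rose, Stmn1 and Dpysl4 fell, and Dcx, Dpysl3, Dpysl5, Crmp1 and Stmn2 did not pass. Of 11797 genes tested, 47.4% passed, 22.4% higher and 25.0% lower at E18, against 3 and 2 of the 10. The median difference of the 10 was 0.18, against -0.044 over all genes. Among the stathmins, Stmn1 fell while Stmn4 rose.

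Stmn1 measured 139, 209.9, 308, 208 and 217 units at E18, against 471 to 764 units at E13. Every E18 library lay below every E13 library, and the log2 difference was -1.51 (SE 0.23, limma adjusted p = 1.09e-05). Stmn4 measured 97.1, 99.6, 76.6, 46.4 and 119.7 units at E18, against 5.58 to 46.7 units at E13. The lowest E18 library, replicate 4, lay just under the highest E13 library, and the log2 difference was 2.06 (SE 0.42, limma adjusted p = 0.000384). Stmn2 measured 317, 627, 949.8, 515 and 821 units at E18, against 150.2 to 959.6 units at E13. The groups overlapped almost wholly, and the difference of 0.67 did not pass (SE 0.42, limma adjusted p = 0.200), though it did at 1.01 without E13 replicate 2.

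Gap43 measured 358, 699.8, 1833, 671 and 793 units at E18, against 58.6 to 596 units at E13. Replicate 1 lay within the E13 range and replicate 3 stood far above the others, and the log2 difference was 1.89 (SE 0.51, limma adjusted p = 0.00406). Dpysl2 measured 389, 527, 992, 364 and 389 units at E18, against 156 to 474 units at E13. Again replicate 3 was highest, and the log2 difference was 0.95 (SE 0.30, limma adjusted p = 0.0124). Dpysl4 measured 32.2, 34.9, 38.9, 26.6 and 30.9 units at E18, against 60.5 to 95.5 units at E13. The groups did not overlap, and the log2 difference was -1.22 (SE 0.41, limma adjusted p = 0.0180). With a pseudocount of 0.1 in place of 1 the Dpysl4 call was lost at -1.24.

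Dcx measured 13.2, 21.2, 20.2, 17.9 and 34.3 units at E18, against 17.5 to 74.5 units at E13. The ranges overlapped, the difference of -0.72 did not pass (SE 0.38, limma adjusted p = 0.129), and it passed at -0.95 without E13 replicate 5. Crmp1 averaged 189 ± 82.1 units at E18 and 185 ± 74.8 units at E13 (SD, n = 5 each), a difference of 0.012 (SE 0.32, limma adjusted p = 0.979) whose sign turned under several settings. Dpysl3 differed by 0.19 and Dpysl5 by 0.17, with limma adjusted p of 0.638 and 0.738, and both ranges overlapped.

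At E18, replicate 3 was highest for 6 of the 10 genes and replicate 5 for the other 4, while replicate 1 was lowest for 6. Again this was not counted over all genes. The 10 mature neuron markers, all listed at E18, summed highest in replicate 3, at 587 units, and lowest in replicate 1, at 164 units. Between the ages the mature neuron sum was 164 to 587 units at E18 and 38.5 to 150.1 units at E13, with 7 of 9 tested higher and 0 lower. The dopamine neuron sum was 44.2 to 315 units at E18 and 136 to 846 units at E13. Of 6 dopamine neuron markers tested, 0 were higher and 2 lower, with a median log2 difference of -0.91. Floor plate and radial glia markers summed to 4194 to 5122 units at E18 and 7337 to 14323 units at E13, with 6 of 9 lower and 1 higher. The ependymal sum was 6529 to 9409 units at E18 and 42.5 to 82.8 units at E13, with 6 of 6 tested higher, and the cycling cell sum was 61.0 to 68.6 units at E18 and 241 to 527 units at E13, with 9 of 9 tested lower. The part of these markers in the results was not tested.

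Of the 22 growth cone and axon cytoskeleton genes, 6 rose at E18 and 4 fell, which is close to the share among all genes. Over all genes tested, 47.4% passed, 22.4% higher and 25.0% lower. L1cam, an axonal adhesion molecule, averaged 31.5 ± 15.5 units at E18 and 4.91 ± 5.01 units at E13, a difference of 2.72 (SE 0.45). Ncam1 rose by 1.64 (SE 0.26) and the doublecortin-like kinase Dclk1 by 1.338 (SE 0.27), to 57.9 ± 11.3 units at E18, against 23.7 ± 9.99 units at E13. Dbn1, which encodes an actin-binding protein, fell (log2 difference -1.40, SE 0.23). Of 24 kinases and semaphorin receptors tested, 8 rose and 1 fell, with Camk2b (2.44), Mapk10 (1.67), the plexin Plxna4 (1.36) and Prkca (1.07) the clearest, and Camk2a the one that fell.

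The third comparison set the adult P70 captures against E18. All 9 genes that could be tested fell, and Dcx was not listed at P70, where its mean was under 1 unit. The falls ran from 2.55-fold for Stmn4 to 32.3-fold for Dpysl3 on the scale of log2(value + 1). Of 12353 genes tested, 40.8% passed, 24.0% lower and 16.9% higher, against 9 and 0 of the 9. The median difference of the 9 was -2.74, against -0.14 over all genes. With libraries centred on their medians the split of all genes turned from 2082 higher and 2960 lower to 2523 higher and 2261 lower, and the 9 genes still fell.

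The CRMP genes fell by very different amounts. Dpysl3 measured 0.910 units in the lowest, 2.04 at the median and 3.55 units in the highest P70 library, against 67.5, 101, 95.3, 87.0 and 148 units at E18, and the log2 difference was -5.01 (SE 0.29, limma adjusted p = 4.10e-11). Its P70 values lay close to the listing limit. Crmp1 measured 7.47, 11.0 and 18.7 units at P70 in the lowest, median and highest library, against 112, 162, 321, 141 and 210.3 units at E18 (log2 difference -3.81, SE 0.31, limma adjusted p = 5.86e-09). Dpysl5, a CRMP gene of developing neurons, measured 0.120, 4.47 and 6.20 units at P70, against 43.3, 59.1, 54.6, 32.9 and 69.7 units at E18 (log2 difference -3.56, SE 0.35, limma adjusted p = 9.70e-08). Dpysl4 measured 0.683, 3.92 and 21.8 units at P70, against 26.6 to 38.9 units at E18 (log2 difference -2.74, SE 0.39, limma adjusted p = 1.16e-05). In these genes no P70 library reached the lowest E18 library.

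Dpysl2 fell least of the CRMP genes, to 126, 173 and 305 units at P70 in the lowest, median and highest library, against 364 to 992 units at E18. Its groups did not overlap, and the log2 difference was -1.46 (SE 0.29, limma adjusted p = 0.000362). At P70 its mean of 186 ± 62.0 units (SD, n = 6) lay beside that of E11, 184 ± 28.7 units (SD, n = 4), with overlapping ranges. Dpysl2 thus made up 78.3% to 93.0% of the summed CRMP units at P70, against 45.9% to 66.04% at E18. Over the ages its mean share was 47.5% (E11), 39.9% (E13), 57.6% (E18) and 87.9% (P70), while the mean share of Crmp1 was 18.2%, 27.3%, 20.7% and 5.90% and that of Dpysl3 was 12.998%, 13.3%, 11.8% and 1.02%.

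Gap43 measured 87.2, 133 and 349.5 units at P70 in the lowest, median and highest library, against 358 to 1833 units at E18. Replicate 6 came close to the lowest E18 library, and the log2 difference was -2.39 (SE 0.49, limma adjusted p = 0.000507). Stmn2 measured 67.8, 71.7 and 128 units at P70, against 317 to 949.8 units at E18 (log2 difference -2.91, SE 0.40, limma adjusted p = 7.56e-06). Stmn1 measured 26.9, 48.3 and 67.1 units at P70, against 139 to 308 units at E18 (log2 difference -2.16, SE 0.22, limma adjusted p = 1.09e-07). Stmn4 measured 18.1, 28.9 and 67.1 units at P70, against 46.4 to 119.7 units at E18. Replicate 3 at P70 lay above the lowest E18 library, and the log2 difference was -1.35 (SE 0.41, limma adjusted p = 0.0111).

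The order of the ages differed from gene to gene. Mean levels ranked P70, E18, E11, E13 from low to high for Stmn1 and Dpysl4, E11, E13, P70, E18 for Stmn4 and E11, P70, E13, E18 for Gap43 and Dpysl2. Dpysl3, Dpysl5, Crmp1 and Stmn2 ranked P70, E11, E13, E18, and Dcx, listed at 3 ages, E11, E18, E13. Neighbours in these orders whose ranges did not overlap were P70 and E11 for Dpysl3, Dpysl5 and Crmp1, P70 and E18 for Stmn1 and Dpysl4, and E11 and E13 for Crmp1 and Dpysl4. All other neighbours overlapped in range.

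**Figure D2:**
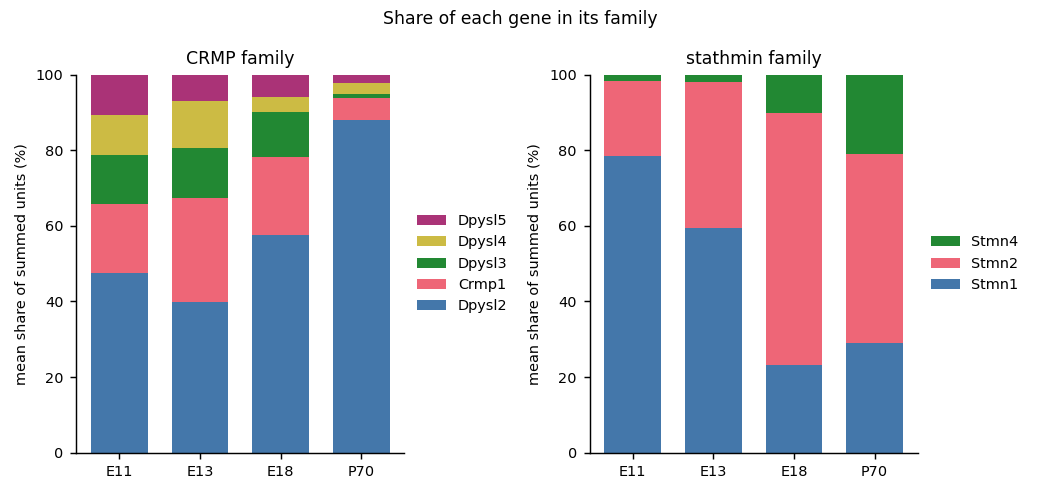
Mean share of each gene in the summed units of its family at E11, E13, E18 and P70, CRMP genes on the left and stathmin genes on the right. The share of Dpysl2 reaches 87.9% at P70, and the share of Stmn1 drops to 23.3% at E18, where Stmn2 holds 66.6%.

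Among the stathmins, Stmn1 made up 78.5%, 59.4%, 23.3% and 29.1% of the summed units at E11, E13, E18 and P70 on average, and Stmn2 made up 19.9%, 38.6%, 66.6% and 49.8%. Stmn4 made up 1.5998%, 2.09%, 10.1% and 21.1% at the same ages. The ratio of Stmn2 to Stmn1 within a library ran from 0.142 to 0.381 among E11 libraries and from 0.319 to 1.26 among E13 libraries. It ran from 2.28 to 3.78 among E18 libraries, none of which overlapped E13, and from 1.198 to 2.88 among P70 libraries. These shares and ratios rest on the gene lengths the authors used. Relative to the median gene, the length implied by the values was 0.282 of the annotated exon length for Stmn1, 0.496 for Stmn2, 0.939 for Stmn4, 0.644 for Dpysl4, 0.994 for Dpysl5, 1.25 for Gap43 and 1.43 for Dpysl2, which raises or lowers a gene's level against the others at all ages alike.

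Some of these P70 values rest on few reads. Recovered reads for Dpysl5 were 2 in P70 replicate 6 and 50 to 64 in the other P70 libraries, those for Dpysl4 were 6 to 120, and those for Stmn1 were 24 to 65. Dpysl2 had 1212 to 4504 and Gap43 had 275 to 1514. Whole reads could not be recovered for Dcx, Dpysl3 and Crmp1.

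Markers of other cells moved over the same interval. The ependymal sum was 15469.9 to 23271 units at P70 and 6529 to 9409 units at E18, with 9 of 10 markers higher. The oligodendrocyte lineage sum was 233 to 749 units at P70 and 62.5 to 92.1 units at E18. Of 6 oligodendrocyte lineage markers tested, 3 were higher and 1 lower, while 2 others were listed only at P70 and 2 only at E18. Mature neuron markers summed to 162 to 638 units at P70 and 164 to 587 units at E18, with 0 of 10 higher and 2 lower, and their median log2 difference was -0.52, against -0.14 over all genes. Floor plate and radial glia markers summed to 1001 to 1495 units at P70 and 4194 to 5122 units at E18, with 4 of 7 tested lower and 0 higher. Dopamine neuron markers summed to 55.9 to 494 units at P70 and 44.2 to 315 units at E18, with 1 of 8 higher and 1 lower. Astrocyte markers summed to 561 to 687 units at P70 and 313 to 448 units at E18, with 4 of 7 higher and 1 lower, and microglia markers to 76.9 to 130.03 units at P70 and 34.3 to 78.4 units at E18, with 3 of 5 higher. At P70 the mature neuron sum was highest in replicate 6, at 638 units, and next in replicate 3, at 628 units. Replicate 6 gave the highest value of 5 of the 9 genes listed and the lowest of 2, Dpysl4 and Dpysl5. Replicate 3 gave the highest value of 2. The dopamine neuron sums of replicates 3 and 6, at 55.9 and 95.9 units, were the lowest at P70. How often each library was highest or lowest over all genes was not counted. The part of these markers in the results was not tested.

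**Figure D3:**
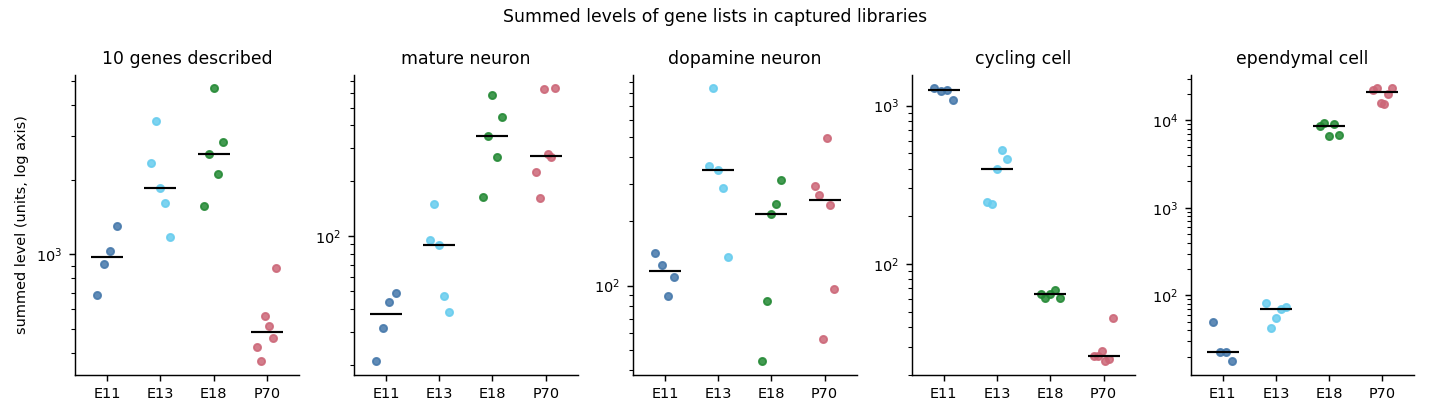
Summed level in every captured library (points, units on a log axis, bars for medians) of the 10 genes described and of 4 marker lists at E11, E13, E18 and P70. The genes, 9 of them listed at P70, sum to 369.9 to 880.2 units there, below every E18 library (1568 to 4691 units), while the mature neuron markers overlap between these ages.

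Of the 22 growth cone and axon cytoskeleton genes, 20 fell at P70 and 0 rose, with a median difference of -1.92, and Nefl and Cntn2 did not pass. Over all genes tested, 40.8% passed, 24.0% lower and 16.9% higher. Tubb2b, a tubulin of developing neurons, averaged 7.99 ± 5.44 units at P70 (SD, n = 6) and 127 ± 41.4 units at E18 (SD, n = 5), a difference of -4.02 (SE 0.35). Tubb3 averaged 67.5 ± 14.3 units at P70 and 537 ± 159 units at E18, and Marcksl1 averaged 85.4 ± 31.9 units at P70 and 445 ± 77.6 units at E18. The log2 difference of Dbn1 was -2.31 (SE 0.22). Of 25 kinases and semaphorin receptors tested, 14 fell and 1 rose. Nrp1 averaged 1.68 ± 1.35 units at P70 and 10.2 ± 2.68 units at E18, Plxna1 averaged 2.02 ± 1.07 units at P70 and 8.20 ± 2.03 units at E18, and Prkcb averaged 3.68 ± 1.42 units at P70 and 16.1 ± 6.26 units at E18. Camk2a, a kinase of mature excitatory synapses, was the one that rose, with 24.3 ± 13.8 units at P70 and 3.94 ± 1.52 units at E18.

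**Figure D4:**
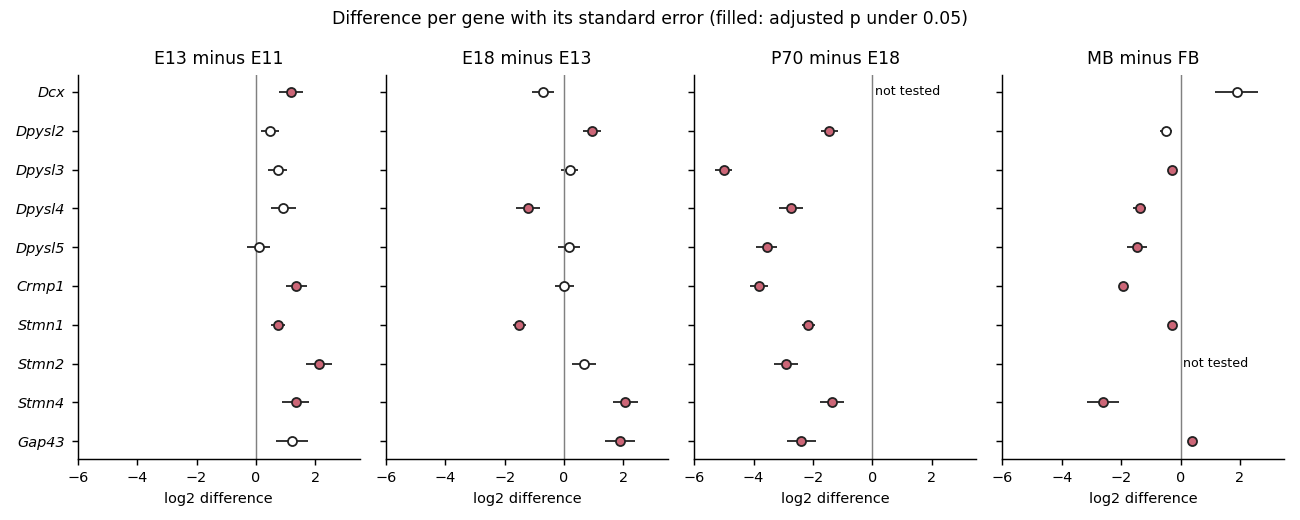
Log2 difference of each gene (points) with its standard error (lines) for E13 minus E11, E18 minus E13, P70 minus E18 and MB minus FB, filled where the adjusted p was under 0.05. All 9 genes tested lie below 0 for P70 minus E18, from -5.01 for Dpysl3 to -1.35 for Stmn4, and Gap43 is the filled point above 0 for MB minus FB, at 0.37.

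In the spheres the question was whether MB and FB cultures differed. Gap43 was higher in MB, while Stmn4, Crmp1, Dpysl5, Dpysl4, Dpysl3 and Stmn1 were lower. Of 12886 genes tested, 29.6% passed, 15.3% higher and 14.3% lower in MB, against 1 and 6 of the 9 genes tested. The median difference of the 9 was -0.50, against -0.015 over all genes.

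Crmp1 measured 36.1, 30.6, 43.1, 40.7 and 31.0 CPM in MB libraries, against 131, 156, 136, 126 and 139 CPM in FB libraries. The groups lay far apart, with 220 to 368 counts per library in MB and 873 to 1249 in FB, and the log2 difference was -1.92 (SE 0.11, edgeR adjusted p = 4.44e-11). Dpysl4 measured 9.35, 5.85, 17.6, 11.7 and 14.7 CPM in MB, against 30.4, 36.8, 29.0, 31.2 and 27.5 CPM in FB (log2 difference -1.38, SE 0.23, edgeR adjusted p = 0.000118). Dpysl5 measured 5.18, 2.51, 7.04, 2.21 and 4.30 CPM in MB, against 10.8, 10.4, 14.6, 14.8 and 8.36 CPM in FB (log2 difference -1.46, SE 0.33, edgeR adjusted p = 0.00189). Neither pair of groups overlapped.

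Stmn4 measured 0.144, 1.81, 0.704, 0.315 and 0.782 CPM in MB, against 3.76, 5.79, 3.71, 5.04 and 5.29 CPM in FB. All MB libraries held 1 to 13 counts and all FB libraries 25 to 44, and the log2 difference was -2.61 (SE 0.54, edgeR adjusted p = 0.00103). Dpysl3 averaged 96.6 ± 7.61 CPM in MB and 119 ± 6.31 CPM in FB (SD, n = 5 each), a log2 difference of -0.30 (SE 0.079, edgeR adjusted p = 0.00589). Stmn1 averaged 302 ± 24.3 CPM in MB and 369.8 ± 14.5 CPM in FB, a log2 difference of -0.29 (SE 0.061, edgeR adjusted p = 0.00108). These 2 differences were small, but no MB library reached the lowest FB library.

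Gap43 measured 203, 218, 202, 217 and 219 CPM in MB, against 175, 185, 144, 153 and 163 CPM in FB. Every MB library lay above every FB library, and the log2 difference was 0.37 (SE 0.073, edgeR adjusted p = 0.000575). Dcx measured 1.87, 3.62, 1.64, 6.94 and 5.61 CPM in MB, against 0.150, 0, 2.51, 1.92 and 0.492 CPM in FB. The groups overlapped at 13 to 44 counts in MB and 0 to 23 counts in FB, and the log2 difference of 1.90 did not pass (SE 0.72, edgeR adjusted p = 0.0550). Without MB replicate 3 it passed at 2.10 and without FB replicate 3 at 2.55.

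Dpysl2 measured 169, 94.3, 192, 129 and 299.6 CPM in MB, against 177, 299.3, 217, 272 and 282 CPM in FB. MB replicate 5 was the highest of all 10 libraries, and the log2 difference of -0.50 did not pass (SE 0.21, edgeR adjusted p = 0.0824). It passed at -0.77 without MB replicate 5 and at -0.59 without FB replicate 1. Stmn2 held 2 to 18 counts in MB and 1 to 25 in FB, too few for the test, with FB replicate 3 alone at 25. The counts are reads after amplification and not molecules, so low counts such as these are less certain than their size implies.

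**Figure D5:**
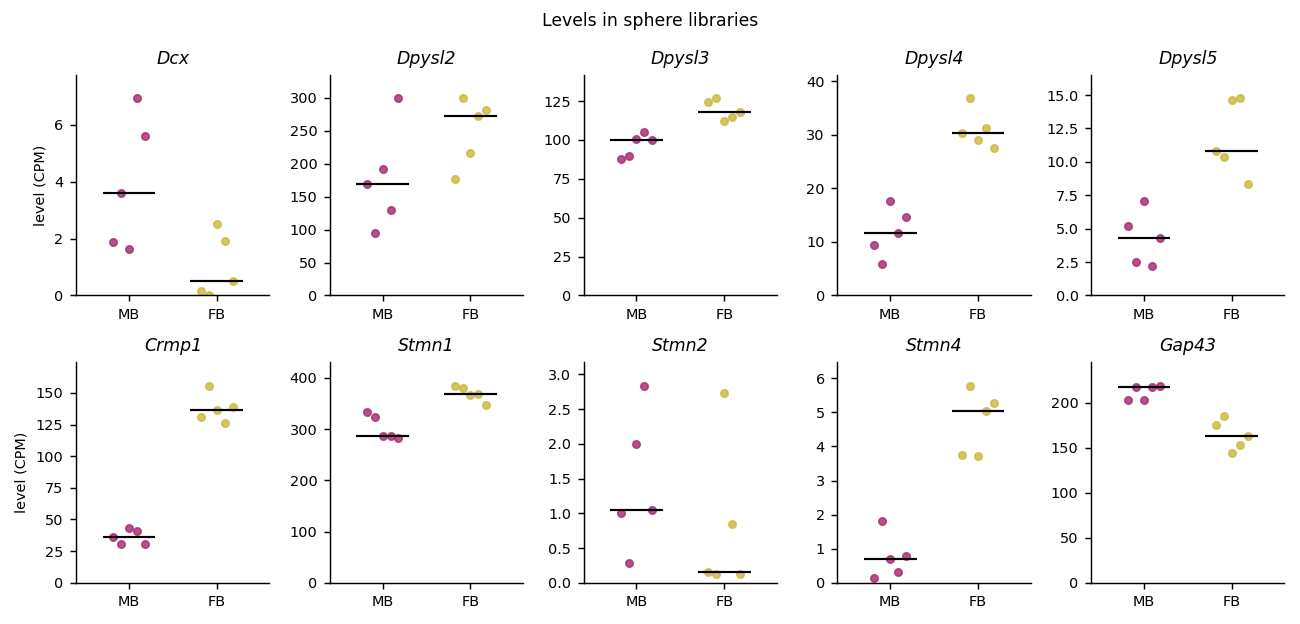
Level of each gene in every sphere library (points, CPM on a linear axis from 0), MB on the left and FB on the right of each panel, with the median of each group as a bar. Crmp1 sits between 30.6 and 43.1 CPM in MB and between 126 and 156 CPM in FB, and Gap43 is the gene whose MB libraries all lie above its FB libraries.

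Scaled to annotated exon length, Stmn1 led with a mean of 157 CPM per kilobase in MB and 192 in FB, followed by Gap43 with 139 in MB and 108 in FB, Dpysl2 with 39.1 in MB and 55.2 in FB and Dpysl3 with 14.6 in MB and 18.04 in FB. Crmp1 had 5.15 in MB and 19.5 in FB, and the other 5 genes had 0.256 to 1.98 in MB and 0.0802 to 5.18 in FB.

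Markers of other cells differed between the spheres too. Of 10 cycling cell markers 7 were lower and 0 higher in MB, summing to 1673 to 1799 CPM in MB and 2092 to 2316 CPM in FB. Mature neuron markers summed to 42.1 to 61.7 CPM in MB and 67.0 to 85.5 CPM in FB, with 3 of 6 tested lower. Forebrain neuroblast markers summed to 0.279 to 1.52 CPM in MB and 4.87 to 10.7 CPM in FB, with Dlx1 and Dlx2 at 0 in every MB library. Floor plate and radial glia markers summed to 3882 to 4339.8 CPM in MB and 5949.8 to 6307 CPM in FB, with 4 of 5 tested lower and 0 higher. Dopamine neuron markers summed to 83.6 to 117 CPM in MB and 8.95 to 18.7 CPM in FB, with 2 of 3 tested higher. Oligodendrocyte lineage markers summed to 2865 to 3547 CPM in MB and 3407 to 3806 CPM in FB, with 3 of 11 higher and 5 lower. Ependymal markers summed to 31.2 to 42.9 CPM in MB and 18.4 to 23.0 CPM in FB, with 1 of 2 tested higher. The part of these markers in the results was not tested.

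Of 20 growth cone and axon cytoskeleton genes tested in the spheres, 4 were higher and 8 lower in MB. Over all genes tested, 29.6% passed, 15.3% higher and 14.3% lower. Map1b, a microtubule protein of growing axons, averaged 28.6 ± 4.96 CPM in MB and 95.4 ± 8.35 CPM in FB (SD, n = 5 each), a log2 difference of -1.74 (SE 0.12). Tubb2b averaged 386 ± 21.6 CPM in MB and 592 ± 21.0 CPM in FB. Marcks was higher by 0.59 (SE 0.086) and Map2, a dendritic microtubule protein, by 0.38 (SE 0.057). Of 24 kinases and semaphorin receptors tested, 5 were higher and 5 lower. Pak1, a kinase that acts on the cytoskeleton, averaged 19.6 ± 2.26 CPM in MB and 77.2 ± 7.79 CPM in FB, and Plxna1 averaged 26.2 ± 6.54 CPM in MB and 53.2 ± 3.79 CPM in FB. Mapk10 was higher by 0.60 (SE 0.10) and Cdk5 lower, at -0.46 (SE 0.082).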

How the data were processed

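Polyadenylated RNA of 20 captured and 10 sphere libraries was made into cDNA by Smart-seq2 and into libraries with Tn5 transposase, per the labels' protocols, without molecular identifiers or strand marking, so counting error covers reads and not molecules. Per the submitters' processing notes, STAR 2.3, Salmon 1.6.0 and DESeq2 1.34.0 had a part, in steps not stated, and mm10 and GRCm39 are listed as builds. No source used here names the unit of the captured values that the authors deposited. As in RPKM, values of 1 gene in 1 library step by a fixed amount per read. Whole reads were recovered within 0.01 reads for 72.4% of 14997 genes. Of 15139 lines, 142 with 1 of 11 repeated symbols were left out. The sphere table holds whole-number counts as the authors deposited them, with a symbol per gene; they may be rounded estimates. No column was without a sample.

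Captured values, as log2(value + 1), went into 1 fit of all 20 libraries in limma 3.58.1 under R 4.3.3 (trend option), over genes listed at both ages. For the sphere counts, edgeR 4.0.16 was used (TMM, filterByExpr, quasi-likelihood test). The Benjamini-Hochberg adjustment ran over every gene tested in a comparison, and adjusted p under 0.05 was called. The tests and the read recovery were tried on simulated data drawn from estimates made on these data. Such a trial cannot show that error rates hold in the real samples. Alternatives were other pseudocounts, filters and scalings, a fit of 2 ages, library weights, a replicate block, each library left out in turn, edgeR on recovered reads, and DESeq2 for the spheres. The 10 genes and the marker and partner lists were chosen with earlier results of these data known. Beside the 10, up to 4 genes with the smallest p per partner list and comparison are named, and the first of the 3 genes of most like pattern. A gene that this rule names is not reported here. Others named in passing (Nefl, Cntn2, kinase or receptor genes that fell, and markers that were not listed or at 0) were picked after their values were seen. Positions are from GENCODE M21.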

Additional observations from a re-analysis of the deposited data

Results flagged for a closer look

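Single libraries stood far from the rest of their group in 7 of 59 groups of 4 to 6 libraries, where the gap to the next library was large against the whole range (Dixon's criterion). Chance gives about 1 in 20 groups where values are normal and groups are independent. Here groups share libraries, and all 7 flagged values were the highest of their group. The count therefore cannot be read as more than chance gives. Replicate 6 of P70 accounted for 3 of them: Dpysl2 at 305.2 units, against 126 to 184 units in the other P70 libraries, Gap43 at 349.5 units, against 87.2 to 152 units, and Stmn2 at 128 units, against 67.8 to 80.4 units. The same library held the lowest P70 values of Dpysl4 and Dpysl5. Dpysl4 was at 21.8 units in P70 replicate 3, against 0.683 to 4.33 units in the other P70 libraries. Dpysl2 was at 992.1 units in E18 replicate 3, against 364 to 527 units in the other E18 libraries. Crmp1 was at 313.9 units in E13 replicate 2, against 123 to 178 units in the other E13 libraries. Stmn2 was at 2.73 CPM in FB replicate 3, against 0.123 to 0.840 CPM in the other FB libraries. The E18 and P70 calls of these genes held without each of these libraries, and so did that of Crmp1 for E13 against E11.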

How the results depend on the processing

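All 9 genes tested for P70 against E18 fell under every alternative run (7 of 7 with edgeR on recovered reads). The 5 calls for E18 against E13, 3 higher and 2 lower, kept direction and call where they could be tested, apart from Dpysl4 with a pseudocount of 0.1. For E13 against E11, where 5 genes passed, 8 passed with a weight per library and 2 to 6 with a library left out. The replicate block gave 4 genes at E13 (against E11), 5 at E18 (against E13), 9 at P70 (against E18) and 9 in MB (against FB), where Dcx (2.39) and Dpysl2 (-0.56) then passed as well. The deviations of samples of the same number correlated at -0.15 to 0.25. These values gave little sign that the numbers pair the samples, but they cannot exclude it. The sign of differences near 0 turned for Dpysl5 at E13 against E11 (-0.068 to 0.22 with a library left out), for Dpysl3 at E18 against E13 (-0.032 without E13 replicate 4, and up to 0.42 without E13 replicate 2) and for Crmp1 at E18 against E13, with -0.040 after median centring, -0.060 with library weights and -0.20 to 0.22 with a library left out. The cause was not tested. In the spheres Dcx passed at 1.92 without the filter and 1.95 by DESeq2, and Dpysl2 at -0.48 without the filter. Over all genes, 2421 passed for E13 against E11, 3811 in a fit of these 2 ages and 4873 with library weights. For P70 against E18, 5042 passed, and 2727 with edgeR on recovered reads, which covered 8709 of the 12353 genes (1479 higher, 1248 lower). Read depth was lowest at P70, and the spread between captured libraries limits the small differences between ages.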

Other observations

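Of 16 transcription and mRNA regulators of neurons tested for E13 against E11, 3 rose and 2 fell, where 20.9% of all genes tested passed. The RNA-binding proteins Elavl2 and Elavl4 rose by 1.69 and 1.37, Igf2bp1 averaged 5.49 ± 0.89 units at E13 and 31.7 ± 1.72 units at E11, and Khsrp fell (log2 difference -1.07). For E18 against E13, 8 of 14 fell and 1 rose, where 47.4% of all genes passed, among them the neurogenic factors Neurod1 (-4.07), Nhlh2 (-3.57) and Sox11 (-2.40). For P70 against E18, 7 of 12 fell and 0 rose, where 40.8% of all genes passed, with Sox11 at -2.73, Elavl3 at -2.31, Elavl2 at -2.26 and Elavl4 at -1.99. In MB against FB spheres, 4 of 11 tested were lower and 2 higher, where 29.6% of all genes passed, among them Sox11 (-0.96), Elavl2 (-1.33), Myt1 (-0.94) and Elavl4 (0.83).

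For each of the 10 genes, the gene whose level followed it most closely over the captured libraries was found by Pearson's r. Over 20 libraries this was Samd10 for Crmp1 (0.97), Dbn1 for Stmn1 (0.98), Scn3a, a sodium channel subunit, for Stmn2 (0.96), Ncam1 for Stmn4 (0.94), Tnik for Gap43 (0.95), Cask for Dpysl2 (0.94), Faxc for Dpysl3 (0.96), Fbxo21 for Dpysl4 (0.97) and Klhl23 for Dpysl5 (0.98). For Dcx it was Cacna2d1, a calcium channel subunit, over its 14 libraries (0.94). Each is the highest of 9876 genes compared for Dcx or 9891 for the others and so is high by selection, and the libraries share their age, their mix of cells and their depth.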
